A study of Rattus norvegicus with 10 samples.

Results

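Integrins are the receptors through which cells hold on to the extracellular matrix and, in leukocytes, to other cells. Each is a dimer of an alpha and a beta subunit. Laminins are heterotrimers of an alpha, a beta and a gamma chain that assemble into the basement membrane beneath epithelium, around vessels and around muscle fibres. In the mammary gland, the alpha6-beta4 and alpha3-beta1 integrins of epithelial cells bind laminins, and alpha6-beta4 anchors hemidesmosomes. The beta2 and beta7 integrins mark leukocytes, and alphaIIb-beta3 is the fibrinogen receptor of platelets.

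The 35 genes examined were 25 integrin and 10 laminin subunits, chosen by name, with earlier results of these data known. A gene was read from its brightest probe set over all 10 arrays among probe sets annotated with that symbol alone, and 32 of the 35 had one. Itga2, Itga4 and Itgb8 had none, so no level is given for them. All 32 lay above the level under which the dimmest 25% of probe sets were left out. By their best known sites of expression they were divided into an epithelial and basement membrane group (8 of 10 measured), a leukocyte and platelet group (9 of 10), a stromal, vascular and muscle group (12 of 12) and 3 broadly expressed integrin subunits. The whole table gave 12255 genes with a tested probe set.

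The arrays came from 5 grade II mammary tumors of female Sprague-Dawley rats, each induced by the carcinogen DMBA, given once by mouth (100 mg/kg). The tumor codes are 09I1 and 11D2, then 12I1 and 29I1, and lastly 43D1. Each tumor gave an untreated basal needle biopsy at 12 weeks of age (n = 5). A final sample followed at 19 weeks (n = 5), after 6 weekly intravenous doses of 1 mg/kg of adriamycin, the anthracycline doxorubicin. All samples of both groups thus came from DMBA-induced tumors. The groups also differ in age, and no untreated tumor of the later age is among the samples. They may differ in sampling too: for the final samples the labels name the whole tumor, but the design text a needle biopsy. Array codes run separately in each group, so array batch and group cannot be told apart. Some tumors may come from the same animal, which the labels leave unsaid, and the p-values describe the spread among these tumors.

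All values are levels on the log2 scale or differences between them, and a difference of 1 is a doubling. Array medians lay between 5.93 and 6.12. The final array of 09I1 stood apart: its median correlation with the other arrays was 0.938, against 0.975 to 0.984, and its 3' beta-actin probe set exceeded the 5' one by 2.61, against 0.72 to 0.96. Many mean differences and list medians are therefore also given without that tumor. SDs over arrays or final samples include it. The 6 luminal epithelial markers were all measured above the filter, with a summed signal between 14.27 and 15.04 on every array. In bulk tissue, fewer cells of a type and less RNA per cell cannot be told apart.

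No integrin or laminin subunit passed the threshold between final and basal samples. With limma, 0 of 32 had an adjusted p under 0.05, beside 0 of 23281 probe sets (0.0%), and the lowest adjusted p among them was 0.859. At an unadjusted limma p under 0.05 there was 1 of 32, Itga9, beside 2.88% of all genes and 4.02% of all probe sets tested. The methods' paired t-test also gave 0 after adjustment and 1 before it, beside 3.81% of all genes. Of the 32, 1 had the same sign in all 5 tumors, beside 5.83% of all genes. None had basal and final groups that did not overlap, beside 0.84% of all genes (0.432% higher and 0.408% lower). The median difference over the 32 was -0.14, beside 0.01 over all genes tested, and it was -0.02 without 09I1.

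The subunits varied more between arrays than the typical gene, and all but Itga9 had differences of both signs among the 5 tumors. The median SD over 10 arrays was 0.47 for the 32 and 0.29 for all genes tested. The range over arrays ran from 0.52 for Itga7 to 3.28 for Itgal. In 29I1 the 8 epithelial genes had a median difference of 0.56 and the 9 leukocyte and platelet genes one of -0.76. In 11D2 the same medians were -0.35 and 0.48, and in 43D1 they were -0.13 and 0.44. In 09I1, 6 of the 32 were higher and 13 lower by more than 0.5, beside 30.5% and 20.2% of all genes in that tumor. In 12I1, 1 was higher and 7 were lower by more than 0.5, beside 8.31% and 7.8% of all genes.

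**Figure D1:**
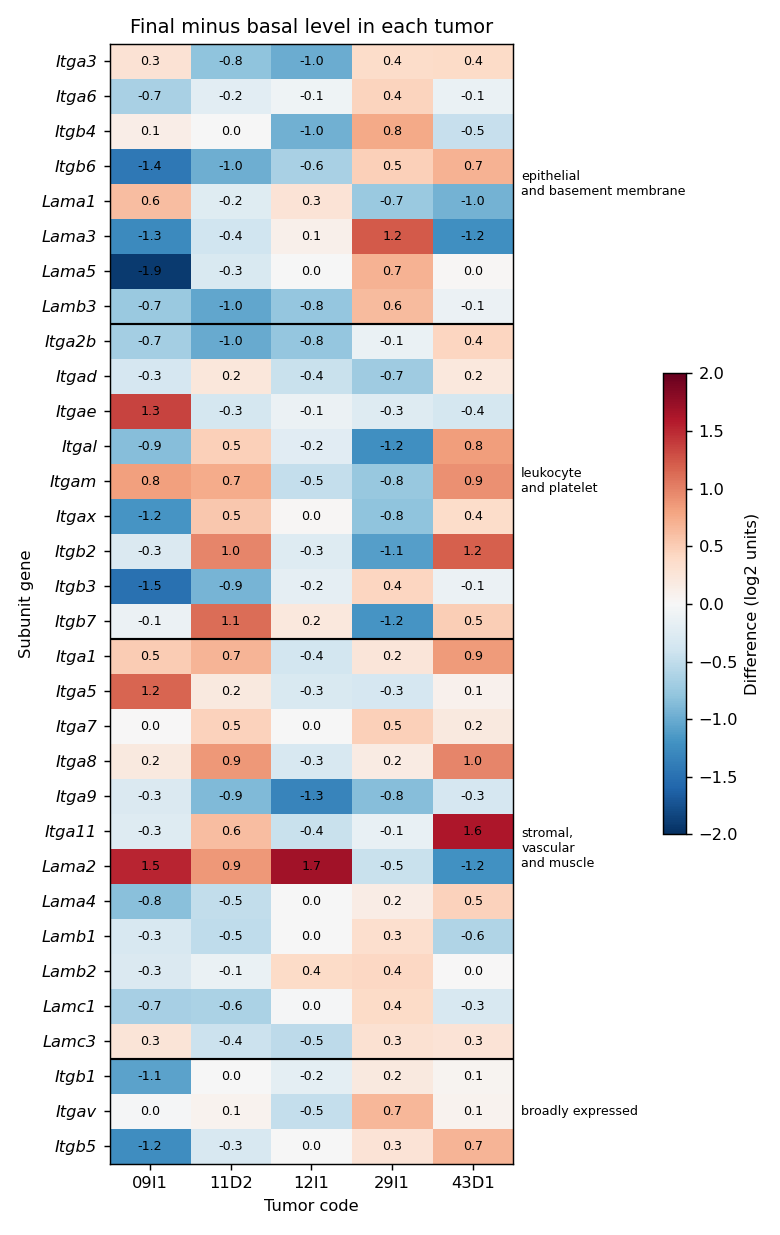
Difference between final and basal level (log2 units, colour and printed value) of the 32 measured subunit genes (rows, in 4 groups) in each of the 5 tumors (columns). Only Itga9 has the same sign in all 5 tumors, and in 29I1 the epithelial and leukocyte groups have medians of 0.56 and -0.76.

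Itga9 encodes the alpha9 subunit, which pairs with beta1 and is found on smooth muscle, lymphatic endothelium and some epithelia. Its levels were 4.67, 5.75, 6.06, 5.57 and 4.80 in the basal samples of 09I1, 11D2, 12I1, 29I1 and 43D1, and 4.38, 4.86, 4.74, 4.72 and 4.46 in the final samples. Every final sample lay below its own basal sample, and the final values were closely bunched, but the groups overlapped because the basal samples of 09I1 and 43D1 were already low. The mean went from 5.37 ± 0.61 (SD, n = 5) to 4.63 ± 0.20 (SD, n = 5). That is a difference of -0.74 ± 0.18 (SE), with a limma p of 0.0045 and an adjusted p of 0.859, so it did not pass. Being lower in all 5 tumors was true of 2.51% of all genes. The difference was -0.85 without 09I1. The gene is dim: the filter level was 4.11, its other probe set lay below it, and Itga9 was not tested when the dimmest 50% were left out.

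Itga1 and Itga8, alpha subunits that pair with beta1 in collagen receptors and in receptors of stromal and smooth muscle cells, were both higher in 4 of 5 tumors and lower in 12I1 by their brightest probe set. Itga1 stood at 4.96, 7.13, 6.60, 5.68 and 6.27 in the basal samples, in the same order of tumors, and at 5.46, 7.81, 6.22, 5.92 and 7.13 in the final ones. The tumors differed far more from each other than between samplings: 09I1 was the lowest and 11D2 the highest at both. The mean difference for Itga1 was 0.38 ± 0.21 (SE, limma adjusted p = 0.977), and 0.35 without 09I1. Itga8 stood at 8.19, 7.50, 8.97, 8.21 and 8.26 and then at 8.39, 8.38, 8.65, 8.38 and 9.23, a mean difference of 0.38 ± 0.22 (SE; limma adjusted p = 0.977). Without 09I1 that mean was 0.42. The largest gains of Itga8 were in 11D2 and 43D1 (0.87 and 0.97), and its second probe set gave 1.24 and 1.27 there. In the other 3 tumors the second probe set had the opposite sign, with -0.39 in 09I1, 0.32 in 12I1 and -0.03 in 29I1.

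The other stromal alpha subunits showed no direction shared by all 5 tumors. Itga5, of the fibronectin receptor, ran from -0.34 in 29I1 to 1.16 in 09I1, and its mean difference went from 0.16 to -0.09 without 09I1. Itga7, the muscle laminin receptor subunit, lay between -0.01 and 0.48 and was higher in 4 of 5 tumors. Itga11, a fibroblast collagen receptor subunit, ran from -0.44 in 12I1 to 1.62 in 43D1, where it had a basal level of 3.25, below the filter level. Only 2 of 5 basal and 3 of 5 final arrays had Itga11 above that level. In 11D2, where skeletal muscle markers had a median difference of 4.81, Itga7 differed by 0.47. In 09I1, 12I1, 29I1 and 43D1 the marker medians were 0.59, 0.09, 0.33 and 0.01. Itga7 differed there by 0.01, -0.01, 0.48 and 0.20. Its second tested probe set gave 0.15 in 11D2 and 0.39 in 29I1. The part of those muscle transcripts in the Itga7 value was not tested.

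The epithelial group holds subunits of laminin receptors, of other laminins and of laminin-332, the trimer of Lama3, Lamb3 and the gamma2 chain that lies under hemidesmosomes. All 8 measured members had a mean difference below 0, from -0.40 to -0.11, with a median of -0.25, and none passed. Over all genes tested, 5793 of 12255 had a mean below 0. Leaving out 09I1 gave a group median of -0.14, and leaving out 29I1 one of -0.44. The sign of that mean turned without 09I1 for Itga6 and Lama5. By tumor the picture was not uniform: 29I1 had 7 of the 8 higher, whereas 12I1 had 2 of 8 and 11D2 had 0 of 8 higher. In the same order, 5602, 6979 and 5768 of all 12255 genes were higher. In 29I1, 4 of the 8 were higher by more than 0.5, beside 7.88% of all genes in that tumor. In 12I1, 4 of the 8 were lower by more than 0.5, beside the 7.8% of all genes given above. In 11D2 it was 3 of the 8, beside 6.3%, and in 43D1 it was 2 of the 8, beside 12.0%. In 09I1, 5 of the 8 were lower and 1 higher by more than 0.5, beside 20.2% and 30.5% of all genes.

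Itga3, the alpha subunit of the laminin-332 receptor alpha3-beta1, stood at 9.68, 10.41, 10.75, 9.97 and 9.76 in the basal samples and at 9.97, 9.61, 9.76, 10.34 and 10.14 in the final ones. The basal highs of 11D2 and 12I1 became the final lows, with differences of -0.80 and -0.99, while the other 3 tumors were higher. By its brightest probe set Itga6 varied little, with 11.30, 11.15, 10.99, 10.77 and 11.10 basal, then 10.65, 10.94, 10.91, 11.21 and 10.97. The mean over its probe sets differed by -0.30, and 2 others were far lower in 09I1 (-4.08 and -2.65). Its partner Itgb4, the hemidesmosome subunit, stood at 9.88, 9.64, 10.99, 9.33 and 10.08 and then at 10.02, 9.64, 10.03, 10.09 and 9.61. The basal sample of 12I1 was the highest for Itgb4 and that of 29I1 the lowest, and the final samples lay closer together (SD 0.23, against 0.63 basal). The mean differences were -0.15 ± 0.25 (SE) for Itga3, -0.13 ± 0.16 (SE) for Itga6 and -0.11 ± 0.24 (SE) for Itgb4, each with limma adjusted p = 0.977. Leaving out 09I1 gave -0.26, 0.0050 and -0.17.

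Both laminin-332 chains on the list were higher in 29I1 and lower in 09I1, 11D2 and 43D1. Lamb3, the beta chain, stood at 9.47, 10.50, 10.57, 9.83 and 9.29 in the basal samples and at 8.73, 9.46, 9.80, 10.47 and 9.17 in the final ones. It was lower in 4 of 5 tumors, with differences of -1.04 to -0.73 in 3 of them, and 0.64 higher in 29I1. The mean difference was -0.40 ± 0.25 (SE; limma adjusted p = 0.977), and -0.32 without 09I1. Lama3, the alpha chain, stood at 8.80, 8.70, 8.81, 7.69 and 9.70 and then at 7.52, 8.30, 8.91, 8.92 and 8.47. Its difference was 1.23 in 29I1, from the lowest basal level of the 5, and -1.23 in 43D1, from the highest. The mean difference of Lama3 was -0.31 ± 0.37 (SE), and -0.07 without 09I1.

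Itgb6 pairs with alphav to activate latent TGF-beta at epithelial surfaces. It had an SD of 0.23 over the basal samples and of 0.82 over the final ones, where 09I1 was the lowest at 8.59. It was lower in 09I1, 11D2 and 12I1 (-1.43, -0.98 and -0.64) and higher in 29I1 and 43D1 (0.48 and 0.69). The mean difference of Itgb6 was -0.38 ± 0.33 (SE), and -0.11 without 09I1. Lama5, the alpha chain of laminin-511 and laminin-521, stood at 11.56, 10.32, 10.52, 9.78 and 9.35 and then at 9.64, 10.01, 10.51, 10.48 and 9.38. The basal sample of 09I1 was the highest, and its difference of -1.92 set the mean: this was -0.30 ± 0.34 (SE) over 5 tumors and 0.10 without 09I1. Lama1, the alpha chain of laminin-111, ran from -0.95 in 43D1 to 0.62 in 09I1.

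Basal and myoepithelial markers had the same direction as most epithelial members in 29I1, and fibroblast markers the opposite one. There the 7 basal and myoepithelial markers had a median difference of 1.03, with 5 of 7 higher by more than 0.5, and their summed signal went from 13.67 to 14.35. The 6 fibroblast markers had a median of -1.63, and the 6 luminal markers one of 0.25. Over all arrays the summed basal and myoepithelial signal ranged from 13.67 to 14.56 in basal and from 13.60 to 14.35 in final samples, with all 7 above the filter. In 43D1 the same 7 markers had a median of -1.04, where Lama3 was at -1.23, Lama1 at -0.95 and Itgb4 at -0.47, but Itgb6 at 0.69, Itga3 at 0.39 and Lama5 at 0.03. Their part in the subunit differences was not tested.

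**Figure D2:**
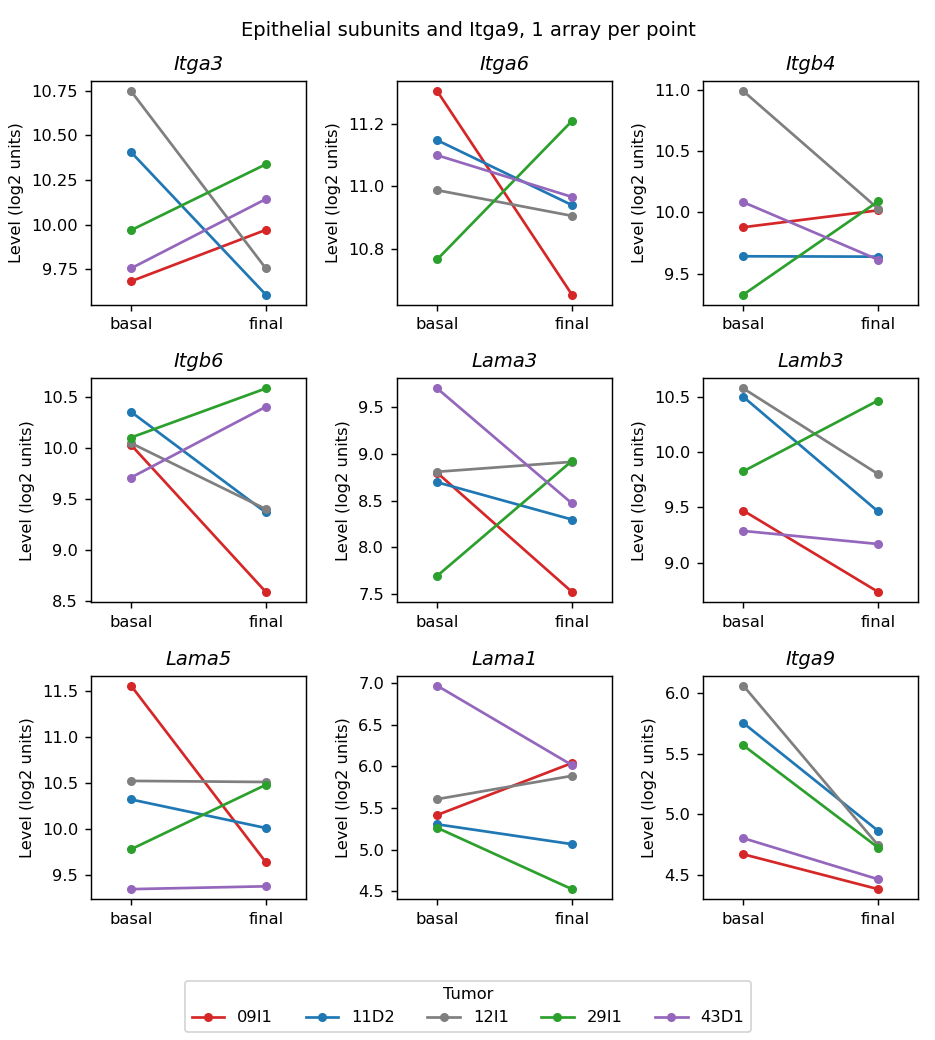
Level (log2 units) of the 8 measured epithelial subunit genes and of Itga9 in the basal and final sample of each tumor, joined by a line in the tumor's colour. In 29I1 the final sample is the higher one in 7 of the 8 epithelial panels, by most for Lama3 (1.23), and the lower one for Lama1 (-0.74). For Itga9 it is the lower one in all 5 tumors.

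The chains Lamc1, Lamb1, Lama4 and Lamb2, which occur widely in basement membranes, spanned narrower ranges over the 10 arrays than Lama3 and Lama5. Lamc1, the gamma chain shared by most laminins, stood at 11.20, 11.37, 11.18, 10.82 and 10.84 in the basal samples and at 10.55, 10.73, 11.16, 11.20 and 10.51 in the final ones. Lamb1, the beta chain of laminin-111, laminin-411 and laminin-511, stood at 10.34, 11.01, 10.98, 10.52 and 10.97 and then at 10.02, 10.50, 10.97, 10.86 and 10.36. Both were higher only in 29I1 among the 5 tumors (0.38 and 0.34). Their mean differences were -0.25 ± 0.18 (SE) and -0.22 ± 0.16 (SE), each with limma adjusted p = 0.977, and -0.15 and -0.20 without 09I1.

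Lama4, the endothelial alpha chain, stood at 9.66, 10.07, 10.01, 9.98 and 8.68 and then at 8.82, 9.57, 9.999, 10.13 and 9.14. Its mean of -0.15 ± 0.21 (SE) was 0.02 without 09I1. Lamb2, a beta chain of vascular and neuromuscular basement membranes, stood at 9.49, 9.17, 8.97, 9.16 and 9.08 and then at 9.21, 9.03, 9.36, 9.58 and 9.09. It differed by 0.08 ± 0.16 (SE), and its 10 values spanned 0.61 in all. Lama2, the muscle and nerve alpha chain of laminin-211, spanned the widest range of differences among the laminins. It was higher in 09I1, 11D2 and 12I1 (1.53, 0.86 and 1.68) and lower in 29I1 and 43D1 (-0.45 and -1.22). All 8 skeletal muscle markers were measured, and 7 lay above the filter (Myh4 did not). The summed signal of the 8 ranged from 7.40 to 11.22 in basal and from 7.96 to 13.01 in final samples. It differed by 4.96 in 11D2 and by -2.38 in 43D1. The fall in 43D1 was mainly that of Acta1, from 11.02 to 7.52, and the median over the 7 markers was 0.01 there. In 09I1, 12I1 and 29I1 the summed muscle signal differed by 0.40, 0.49 and 0.56. The part of muscle in the Lama2 values was not tested. Lamc3 lay between -0.52 and 0.31. Over the 10 laminin chains, 2 had a mean above 0 and 8 below, and the median was -0.21 (-0.08 without 09I1). Of all 12255 genes tested, 6462 had a mean above 0 and 5793 below. Leaving out 09I1 gave 4 chains above and 6 below, beside 5931 and 6324 of all genes.

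The leukocyte subunits Itgb2, Itgal, Itgam, Itgax and Itgb7 were higher in the final samples of 11D2 and 43D1 and lower in that of 29I1, whereas Itgae was lower in all 3. Itgal is the alpha subunit of LFA-1 on lymphocytes, Itgam and Itgax are the myeloid alpha subunits of Mac-1 and of complement receptor 4, and all pair with Itgb2. Itgb2 stood at 7.51, 7.79, 8.35, 9.08 and 7.25 in the basal samples and at 7.22, 8.77, 8.08, 7.98 and 8.45 in the final ones. The basal sample of 29I1 was the highest of all 10 arrays and the basal sample of 43D1 was close to the lowest. Itgal stood at 8.27, 8.11, 8.74, 9.63 and 6.35 and then at 7.42, 8.59, 8.51, 8.40 and 7.18. For it too the highest and lowest arrays were the basal ones of 29I1 and 43D1. The mean differences were 0.10 ± 0.35 (SE) for Itgb2 (limma adjusted p = 0.978) and -0.20 ± 0.32 (SE) for Itgal (limma adjusted p = 0.977). Leaving out 09I1 gave 0.20 and -0.04.

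The tumors' differences were larger than these means. Itgb2 differed by 0.98 in 11D2, 1.19 in 43D1 and -1.11 in 29I1, and Itgal by 0.48, 0.83 and -1.23. Itgam differed by 0.74, 0.92 and -0.76 and Itgax by 0.53, 0.36 and -0.81. Itgb7, which pairs with alpha4 on gut-homing lymphocytes and with alphaE, differed by 1.11, 0.49 and -1.18 in the same order. These 5 genes and 3 tumors were set together after their values were seen, because the signs match. The same 5 genes were split in 12I1, with Itgam at -0.48 and Itgb7 at 0.21. They were also split in 09I1, with Itgam at 0.83 and Itgal at -0.85. In 29I1, 6 of the 9 leukocyte and platelet members were lower by more than 0.5, beside 14.6% of all genes in that tumor. In 11D2, 4 of the 9 were higher by more than 0.5, beside 8.71% of all genes, and 2, the platelet subunits Itga2b and Itgb3, were lower by more than that, beside 6.3%. In 43D1, 3 of the 9 were higher, beside 11.8%, and 0 lower. In 09I1, 2 of the 9 were higher and 4 lower by more than 0.5, beside 30.5% and 20.2%. In 12I1, 1 of the 9 was lower by more than 0.5, beside 7.8% of all genes.

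The sequences upstream of Itgam and Itgax are shown because these genes of the leukocyte group share a beta subunit and a direction in 11D2, 29I1 and 43D1. Each is 250 bases that end just before the gene's start, on the plus strand of the GRCr8 assembly, from RefSeq. Capitals mark GAGGAA, a core of sites for the myeloid factor PU.1, on either strand, and TGANTCA, the AP-1 motif, on either strand.
Itgam, chr1:192089342-192089591: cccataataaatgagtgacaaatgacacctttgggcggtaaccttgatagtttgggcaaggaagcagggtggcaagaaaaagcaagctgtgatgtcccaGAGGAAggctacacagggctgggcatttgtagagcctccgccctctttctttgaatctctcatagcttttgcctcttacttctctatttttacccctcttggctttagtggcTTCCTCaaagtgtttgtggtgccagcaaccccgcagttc
Itgax, chr1:192149799-192150048: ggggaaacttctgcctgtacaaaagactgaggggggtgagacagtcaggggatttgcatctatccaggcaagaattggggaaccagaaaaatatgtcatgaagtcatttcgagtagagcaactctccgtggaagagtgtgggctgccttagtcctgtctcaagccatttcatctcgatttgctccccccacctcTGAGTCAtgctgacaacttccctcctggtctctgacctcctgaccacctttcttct

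In Itgam, GAGGAA begins 151 bases before the start, and its reverse complement begins 39 bases before it. In Itgax, TGANTCA begins 56 bases before the start. Promoters were found for 27 of the 35 subunit genes, in windows of 250 bases before the start and 50 after. The 27 include Itga2, Itga4 and Itgb8, which had no measured level, but not Itgal or Itgb2. GAGGAA was present in 12 of these 27, and in 2 of the 6 leukocyte and platelet ones (Itgae and Itgam), beside 27.6% of all 33469 promoters of that length. TGANTCA was present in 2 of the 27, Itgax and Lama3, beside 7.33% of all promoters. The Lama3 window held it at 3 places, which begin 240, 92 and 36 bases before the start. A match is a run of letters and does not show that a factor binds there.

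Itgae, the alphaE subunit of intraepithelial T cells that binds E-cadherin, did not follow the others. It stood at 7.16, 7.58, 7.38, 7.65 and 7.45 in the basal samples and at 8.51, 7.23, 7.26, 7.40 and 7.09 in the final ones. It was lower in 4 of 5 tumors and 1.34 higher in 09I1, whose final array stood above all others. The mean difference of 0.06 ± 0.28 (SE; limma adjusted p = 0.986) became -0.27 without 09I1. Itgad, an alpha partner of Itgb2 on macrophages, was dim, with levels between 4.12 and 5.04, and ran from -0.72 in 29I1 to 0.22 in 11D2. In 09I1 the leukocyte members had no shared sign: Itgam was at 0.83, Itgal at -0.85 and Itgax at -1.17.

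Marker genes of T and NK cells and of macrophages had the same direction as these 5 integrins in 11D2, 43D1 and 29I1. The 7 T and NK cell markers had medians of 1.36 in 11D2, 1.12 in 43D1 and -0.74 in 29I1. The 8 macrophage markers had medians of 0.86, 1.19 and -1.34 in the same order, and 7 of 8, 8 of 8 and 7 of 8 passed 0.5 in those directions. In 12I1 the macrophage markers had a median of -0.83, with 7 of 8 lower by more than 0.5, and the T and NK cell markers one of 0.02, while Itgb2 was at -0.26, Itgam at -0.48, Itgax at 0.02 and Itgb7 at 0.21. All markers of both lists lay above the filter. The summed T and NK cell signal ranged from 9.55 to 12.23 in basal and from 10.78 to 11.85 in final samples, and the macrophage signal from 11.71 to 13.79 and from 12.35 to 13.41. For both lists, as for Itgal, the lowest and highest arrays were the basal ones of 43D1 and 29I1. In 09I1 the T and NK cell markers had a median of 0.92, with Ptprc, the pan-leukocyte gene Cd45, at -1.33, while Itgal was at -0.85. The part of cell number in the integrin values was not tested.

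**Figure D3:**
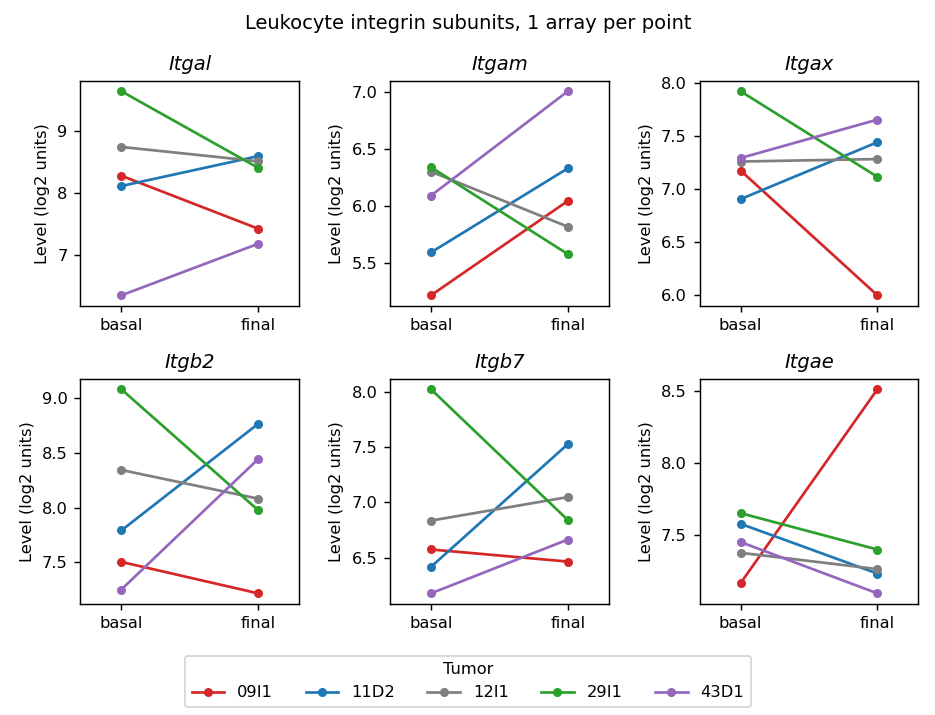
Level (log2 units) of 6 leukocyte integrin genes in the basal and final sample of each tumor, joined by a line in the tumor's colour. For Itgal, Itgam, Itgax, Itgb2 and Itgb7 the final sample is higher in 11D2 and 43D1 and lower in 29I1, while for Itgae it is higher only in 09I1.

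The platelet receptor subunits were lower in most final samples without passing the test. Itga2b, the platelet alphaIIb subunit, stood at 5.89, 6.06, 5.82, 5.44 and 4.73 in the basal samples and at 5.21, 5.05, 5.04, 5.30 and 5.16 in the final ones. The 4 highest arrays were basal, but the lowest array was the basal one of 43D1, so the groups overlapped. The mean difference was -0.43 ± 0.23 (SE, limma adjusted p = 0.977), and -0.37 without 09I1. Its partner Itgb3, which also pairs with alphav on endothelial cells, stood at 8.63, 8.51, 7.91, 7.89 and 7.79 and then at 7.15, 7.58, 7.73, 8.32 and 7.67. The mean was -0.46 ± 0.28 (SE; limma adjusted p = 0.977) and -0.20 without 09I1. Of 5 platelet markers, 4 were measured and 3 lay above the filter (Ppbp did not, and Gp1bb had no probe set). Their summed signal ranged from 8.72 to 10.47 in basal and from 7.80 to 9.60 in final samples. It differed by -0.87, -1.17, -2.03, -1.18 and 0.01 in the tumors' usual order. Pf4, the brightest of these markers, differed by -0.93, -1.23, -2.23, -1.36 and 0.03, close to the sum. Gp9 differed by 0.33, -0.01, -0.65, 0.05 and -0.08, and the dim Clec1b was lower in all 5 tumors. In that order Itga2b differed by -0.68, -1.01, -0.78, -0.14 and 0.44, and Itgb3 by -1.48, -0.93, -0.18, 0.43 and -0.12, so that in 29I1 Itgb3 was higher while the platelet signal was lower. The part of platelets in the Itga2b and Itgb3 values was not tested.

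Itgb1 varied little outside 09I1, and so, apart from 29I1 and 12I1, did Itgav. Itgb1, the beta partner of most matrix-binding alpha subunits, stood at 11.31, 11.39, 11.59, 11.33 and 11.33 in the basal samples and at 10.25, 11.39, 11.40, 11.53 and 11.39 in the final ones. The final array of 09I1 was more than 1 unit below every other array, and in the other 4 tumors the difference lay between -0.19 and 0.19. Itgb5, a vitronectin receptor subunit, stood at 9.73, 10.11, 9.83, 9.55 and 9.16 and then at 8.49, 9.79, 9.82, 9.81 and 9.85. Itgav, the alphav subunit of vitronectin and TGF-beta-activating receptors, stood at 8.51, 8.35, 8.92, 8.17 and 8.34 and then at 8.48, 8.43, 8.44, 8.83 and 8.40. The mean differences were -0.20 ± 0.19 (SE) for Itgb1, -0.12 ± 0.27 (SE) for Itgb5 and 0.06 ± 0.18 (SE) for Itgav. Without 09I1 they were 0.01, 0.15 and 0.08.

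Probe sets of the same subunit gave very different values on the final array of 09I1. Itga6 was at -0.65 in 09I1 by its brightest probe set and at -4.08 and -2.65 by 2 others, whose level was 5.63 and 6.88 there against 9.24 to 9.87 and 8.89 to 9.59 on the other 9 arrays. Lamc1 was at -0.66 by its brightest and at -4.07 by its other probe set. Itgb1 was at -1.06 and -2.86, and Itgb5 at -1.24 and -1.81. Itgav was at -0.03 by the brightest and at -1.14 and -1.41 by 2 others. The further probe sets of Itga7 and Itga8 were at -0.01 and -0.39, and a dim one of Itga6 at 0.48. For Lamc1 and Itgb1 the probe sets were much closer in the other 4 tumors: for Lamc1 they ran from -0.64 to 0.38 and from -0.59 to 0.43, and for Itgb1 from -0.19 to 0.19 and from -0.08 to 0.24. In all, 7 genes had more than 1 tested probe set, and 7 of their 10 further probe sets were lower by more than 1 in 09I1. Itga7 and Itga8 did not follow that pattern: those of Itga8 had opposite signs in 12I1 (-0.32 and 0.32), and those of Itga7 were at 0.47 and 0.15 in 11D2. This array also had the 3' excess of beta-actin given above, whose part in these values was not tested.

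**Figure D4:**
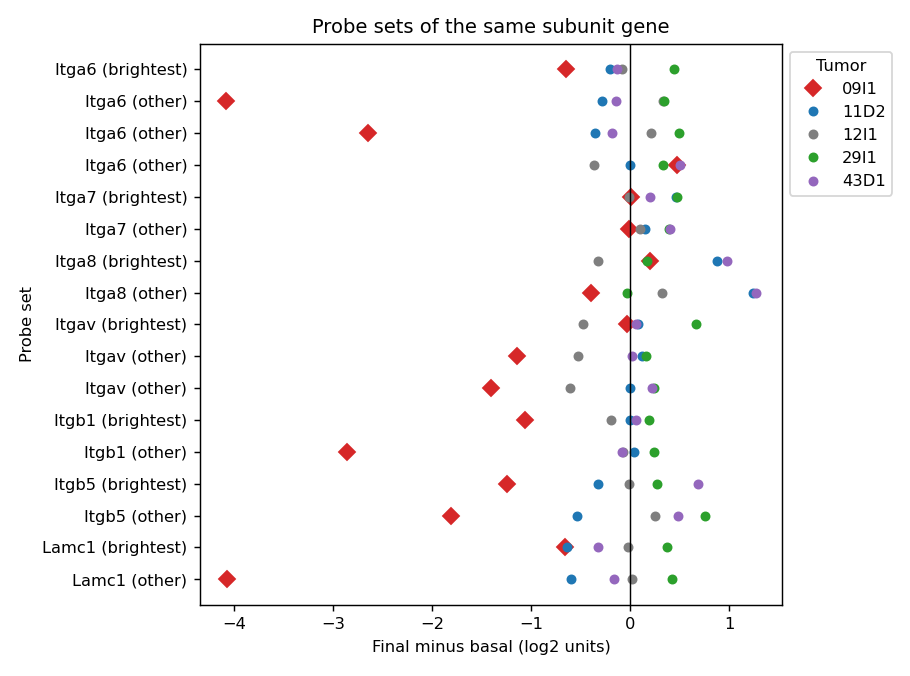
Difference between final and basal level (log2 units) by each tested probe set of the 7 subunit genes with more than 1, in each tumor. The 09I1 diamonds lie far to the left for further probe sets of Itga6 (-4.08), Lamc1 (-4.07) and Itgb1 (-2.86), while the points of the other 4 tumors stay between -0.64 and 1.27.

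Other genes of adhesion were also without a call. Of 39 matrix ligands, surface partners, hemidesmosome and cytoplasmic linker genes, 34 were tested, 0 passed with limma after adjustment, and at an unadjusted p under 0.05 there were 0 higher and 1 lower, beside 1.78% and 1.1% of all genes. That 1 was Nid1, a linker of laminin and collagen IV in basement membranes. It was lower in all 5 tumors, from 10.57 to 10.18 on average. The difference was -0.38 ± 0.14 (SE; limma adjusted p = 0.977), and -0.29 without 09I1. Vtn, which encodes the integrin ligand vitronectin, was higher in all 5 tumors (0.30 ± 0.15 SE; limma adjusted p = 0.977), and being higher in all 5 was true of 3.33% of all genes. Nid2, the second nidogen, had a difference of -0.49, with -1.59 in 29I1 and -1.10 in 43D1. In 09I1, 11D2 and 12I1 it was slightly higher (0.09, 0.08 and 0.06).

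The other adhesion lists were centred a little below 0. The 10 matrix ligands tested had a median difference of -0.34 (-0.22 without 09I1), and 3 were higher and 7 lower on average. The 8 surface ligands and partners had a median of -0.12 (0.07 without 09I1). Among them Vcam1, the counter-receptor of alpha4-beta1, had a difference of -0.69, with 1.48 in 43D1 and -2.31 in 29I1. Dag1, the laminin-binding dystroglycan, was at -0.38 and Cdh1, the E-cadherin that alphaE-beta7 binds, at -0.37, with 09I1 at -1.67 and -2.20. Without 09I1 Dag1 was at -0.06 and Cdh1 at 0.08. All 13 cytoplasmic linkers and kinases tested had a mean below 0, with a median of -0.12, and 10 of the 13 did without 09I1; over all genes tested, 5793 of 12255 had a mean below 0, and 6324 without 09I1. Src was at -0.28 and the talin Tln1 at -0.23. Vinculin, Vcl, was at -0.65, with -2.87 in 09I1, and at -0.09 without that tumor. The 3 hemidesmosome genes, Dst, Plec and Col17a1, had mean differences of 0.18, -0.06 and -0.18 (0.29, -0.20 and 0.0046 without 09I1). In 29I1 Col17a1 was at 1.41 and Dst at 0.87, in the tumor where Lama3, Lamb3 and Itgb4 were higher.

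Set beside each other, the list medians place 29I1 opposite to 11D2 for both the epithelial and the leukocyte subunits. The stromal, vascular and muscle group, whose members went in both directions within each tumor, had medians between -0.16 and 0.20. Fibroblast markers had medians of 0.99 in 11D2 and 0.73 in 12I1, and endothelial markers one of -0.84 in 29I1, while the stromal subunits had medians of 0.03, -0.16 and 0.20 there. Summed fibroblast signal ranged from 13.56 to 14.71 in basal and from 13.22 to 14.75 in final samples, and summed endothelial signal from 9.38 to 10.26 and from 9.48 to 9.87 (5 of 6 endothelial markers were measured, all above the filter). The median over all genes tested lay between -0.04 and 0.15 in each tumor.

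**Figure D5:**
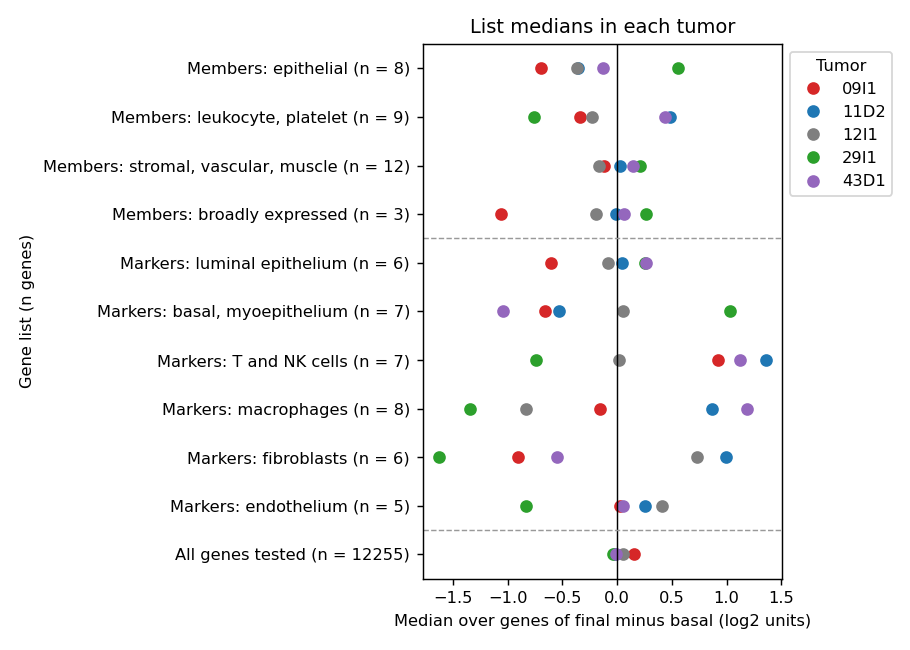
Median over genes of the difference between final and basal level (log2 units) for the 4 groups of subunits, 6 cell type marker lists and all genes tested, with 1 point per tumor. The epithelial subunits are highest in 29I1 (0.56), where the leukocyte subunits (-0.76), macrophage markers (-1.34) and fibroblast markers (-1.63) are lowest.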

How the data were processed

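Expression was measured on Affymetrix Rat Genome 230 2.0 arrays. Per the labels' protocols and the submitters' processing notes, the authors normalized intensities by robust multichip average (RMA) and tested pairs in GeneSpring GX 7.3. The deposited table holds log2 values. It has 31099 probe sets, including 57 controls and dim signals. Of the others, 20826 had 1 gene symbol in the platform annotation, 436 several and 9780 none. All 32 measured subunits matched RefSeq (GRCr8) by Entrez identifier. That build was used for names and promoters only.

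Controls and the dimmest 25% by mean over 10 arrays were left out (23281 kept). Differences between final and basal samples come from limma 3.58.1 under R 4.3.3. The model held a term for each tumor, its prior variance followed intensity, and p-values were adjusted by Benjamini-Hochberg over all tested probe sets, with a threshold of 0.05. The fit was tested on simulated data. Summed marker signals are log2 of summed linear values. Within a tumor, differences past 0.5 were counted. The number of arrays limits the precision, and levels of different probe sets were not compared.

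The pairing comes from the tumor codes in the labels. Deviations of both samples of a tumor from their group means correlated, across probe sets, at -0.15 to 0.22.

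The subunits, lists and tests were chosen with earlier results of these data known. Full values are given for the 4 brightest members of each group, the 6 with the smallest p and their partners, and up to 3 genes by p of each adhesion list. Genes beyond these were named after their values were seen. The alternatives tried were a fit without the tumor term or with it as random, no filter or one on the dimmest 50%, cyclic loess, median centring, no trend, array weights, the methods' paired t-test, the mean over probe sets and leaving out each tumor. Figures were drawn with matplotlib 3.10.9.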

Additional observations from a re-analysis of the deposited data

Results flagged for a closer look

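Among 64 sets of 5 levels (32 subunits, basal and final), 5 had an array far from the other 4, where chance flags about 3.2. In 3 of the 5 it was the final array of 09I1. Itgae was at 8.51 there, against 7.09 to 7.40 in the other final samples. Itgb1 was at 10.25, against 11.39 to 11.53, and Itgb5 at 8.49, against 9.79 to 9.85. Lama1 was at 6.97 in the basal sample of 43D1, against 5.26 to 5.61 in the other basal samples. Itgav was at 8.83 in the final sample of 29I1, against 8.40 to 8.48 in the others.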

How the results depend on the processing

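The number of probe sets called with limma was 0 under every alternative run, as it was after adjustment of the methods' paired t-test. No subunit passed in any of them. With no replicate block the median over the 32 subunits was -0.14, which complete pairs fix in advance, and the block changed no call. It did change p-values. The limma p of Itga9 was 0.0045 with the block and 0.017 without it, and that of Itga1 was 0.11 and 0.46. The number of subunits at an unadjusted p under 0.05 was chosen for comparison after seeing the data. It was 0 of 24 with the dimmest 50% left out, which removes Itga9, beside 2.57% of the genes then tested. With array weights it was 5, beside 9.01% of all genes. It ran from 1 to 5 with a tumor left out, beside 1.95% to 6.85% of all genes; the 5 were without 29I1, beside 3.70%. Itga9 was among them in all of these settings but the first, with a difference between -0.85 and -0.59 and an adjusted p between 0.192 and 0.999. Group medians moved by less than their SD over tumors in all settings, although that of the leukocyte group was 0.11 with array weights and 0.06 without 29I1. Of 472 differences of single subunits under an alternative, 25 had the opposite sign. Many of the 472 could not turn. The filters, the trend, the tumor term and the paired t-test leave a subunit's mean difference unchanged by construction. So does the mean over probe sets where a subunit had 1 tested probe set. The sign turned for Itgae (-0.24), Itgal (0.11) and Itgax (0.15) with array weights, for Itgav (-0.18) with the mean over probe sets and for Lamc3 (0.0073) with median centring. It turned without 1 tumor for 17 subunits, 8 of them without 09I1. With each tumor left out in turn, the mean ran from -0.053 to 0.46 for Itga11, -0.28 to 0.062 for Itga3, -0.088 to 0.29 for Itga5, -0.27 to 0.0050 for Itga6 and -0.27 to 0.16 for Itgae. It ran from -0.46 to 0.057 for Itgal, -0.092 to 0.19 for Itgav, -0.40 to 0.028 for Itgax, -0.30 to 0.013 for Itgb1 and -0.17 to 0.40 for Itgb2. It ran from -0.32 to 0.11 for Itgb4, -0.33 to 0.15 for Itgb5, -0.15 to 0.43 for Itgb7 and -0.30 to 0.024 for Lama4. It ran from -0.55 to 0.10 for Lama5, -0.0065 to 0.17 for Lamb2 and -0.11 to 0.10 for Lamc3. Which tumors enter thus sets the sign of these means, by construction of a mean over 5.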
